A study of Homo sapiens with 4 samples.

Results

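The genes described here encode the proteins of the mitochondrial ribosome. They were taken by name from a table of fragment counts, as every gene name made of MRPL or MRPS, a number and at most a letter A, B or C. This gave 78 of 59384 gene names, 49 MRPL genes of the large subunit series and 29 MRPS genes of the small subunit series. The table came from RNA sequencing of Daoy, an established human medulloblastoma cell line. It held 2 libraries of cells given a lentivirus that expresses a hairpin RNA targeting FABP4 (shFABP4 1 and shFABP4 2) and 2 libraries of cells infected with pLKO control virus (pLKO 1 and pLKO 2). Both groups thus carried a lentivirus, and FABP4 is a cytosolic protein that binds fatty acids. Neither the hairpin's sequence nor the time after infection was given in the sources used here. The sources used here do not say if libraries 1 and 2 are separate cultures, and the p-values below reflect nothing but the scatter among the 4 libraries, possibly technical.

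The mitochondrial ribosome translates the few messenger RNAs of mitochondrial DNA, which encode core subunits of the respiratory chain and of ATP synthase. Its RNA parts come from mitochondrial DNA, whereas all of its proteins are encoded in the nucleus, made in the cytosol and imported. Some of these proteins descend from bacterial ribosomal proteins, and others are found in mitochondria alone. The letters of the names follow history rather than place. MRPS30 and MRPS18A are built into the large subunit, and MRPS36 has since been placed in the 2-oxoglutarate dehydrogenase complex.

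The shFABP4 libraries held 2539862 and 20431660 counted fragments, and the pLKO libraries 8988961 and 13839885. shFABP4 1, the shallowest library, had fragments in 51762 gene names, against 22350 in shFABP4 2 and 23372 and 25560 in the pLKO libraries. From coding genes that had no fragment in the other 3 libraries, 54.9% of the fragments of shFABP4 1 were expected from a background that follows exon length and GC content. FABP4 had 14 and 0 fragments in the shFABP4 libraries, against 1 and 6 in the pLKO libraries. With 4.72 background fragments expected in shFABP4 1, these counts do not check the labels. Of the line's markers, VIM stood at 1114 and 6412 CPM (counts scaled to the library total) in shFABP4 libraries and at 1536 and 1552 CPM in pLKO libraries. CD44 had 163 and 533 CPM in shFABP4 libraries, against 331 and 330 CPM in pLKO libraries. NES was low, at 67.3 and 8.81 CPM in shFABP4 libraries and 3.89 and 4.99 CPM in pLKO libraries, and 91.1 of its 171 fragments in shFABP4 1 were expected from background. PTPRC, CD3E, ALB and PECAM1, markers of cell types the culture should lack, reached at most 0.361 CPM in the 3 libraries other than shFABP4 1, and 8.27 to 40.5 CPM in shFABP4 1.

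The mitochondrial ribosomal protein genes together took 0.269% and 0.65% of the fragments in the shFABP4 libraries and 0.997% and 0.987% in the pLKO libraries. In shFABP4 1 this was 6840 fragments, of which 1905 (27.9%) were expected from background. The number of MRPL fragments per MRPS fragment was 1.90 and 1.82 in shFABP4 libraries and 1.66 and 1.63 in pLKO libraries. Both shares of the shFABP4 libraries lay below both pLKO shares, and both subunit ratios lay above. The order of the ratios rested on a single gene. MRPS12 held 199 of 2355 and 2870 of 47147 MRPS fragments in shFABP4 libraries, against 8493 of 33758 and 13042 of 51946 in pLKO libraries. With MRPS12 left out, both shFABP4 ratios would lie below both pLKO ratios. The share in shFABP4 1 is of a total that is mostly background, and its place against pLKO changed with the scale. With CPM scaled over 1142 genes expected to stand above this background (described with their test further on), the members summed to 15450 and 12462 CPM in shFABP4 libraries, against 15142 and 15000 CPM in pLKO libraries. There shFABP4 1 lay above both pLKO libraries and shFABP4 2 below them. That sum for shFABP4 1 still held background. With the expected background taken off and the scaling unchanged, it was 11146 CPM, below both pLKO libraries. In bulk RNA, fewer cells expressing a gene and less RNA per cell cannot be told apart.

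Signal from pseudogenes gave a second view of the background. The table listed 79 pseudogenes named after MRPL or MRPS genes. Fragments fell in 67 of them in shFABP4 1 and in 10 in shFABP4 2, against 7 and 8 in the pLKO libraries. The 302 fragments of shFABP4 1 were spread thinly, whereas 224 of the 307 in shFABP4 2 lay in MRPL45P2 and 46 in MRPS18CP7. The counting could have split fragments between MRPL45 or MRPS18C and such a copy.

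In the pLKO libraries the levels of the members ranged over several orders of magnitude. Per gene, the median was 59.2 CPM. MRPS12, the counterpart of a bacterial protein at the decoding centre, had the highest level, 944 ± 1.75 CPM (mean ± SD, n = 2). MRPL28 followed at 848 ± 20.9 CPM, then MRPS34 at 696 ± 1.38 CPM and MRPL41 at 565 ± 1.21 CPM. Per kb of exon, MRPL41 led with 970 CPM per kb, followed by MRPS34 at 637 and MRPS12 at 538 CPM per kb, against a median of 22.1 CPM per kb. The gaps between these 4 genes in CPM exceeded the SD between the pLKO libraries. Further down the order neighbours could not be told apart, such as MRPL36 and MRPS21, both at 134 CPM (SD 2.23 and 3.25). The 10 members with the most CPM held 52.7% of the members' fragments in pLKO and 33.8% in shFABP4 2.

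At the other end, 9 members stayed under 5 CPM in pLKO, among them MRPL9, MRPL46, MRPS22, MRPS24 and MRPS28. Of these 9, 7 share over 20% of their exon bases with another gene name, and the lowest share is 11.3%, in MRPL46. Among all 78 members, 18 share over 20% and 37 share none. MRPL53, 99.4% of whose exon bases lie in another gene, had 0 fragments in every library, which allows up to 1.18 and 0.147 CPM in the shFABP4 libraries and up to 0.334 and 0.217 CPM in the pLKO libraries. The counts carry no strand, and the header names no option to keep fragments that lie in several genes. The part of exon sharing in the low counts was not tested, and MRPL12 (69.5% shared) and MRPS34 (31.2%) were among the most abundant members. MRPL46 had 26.8 and 1.22 CPM in shFABP4 libraries and 1.0 and 1.30 CPM in pLKO libraries. In shFABP4 1 that was 68 fragments, with 30.4 expected from background.

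**Figure D1:**
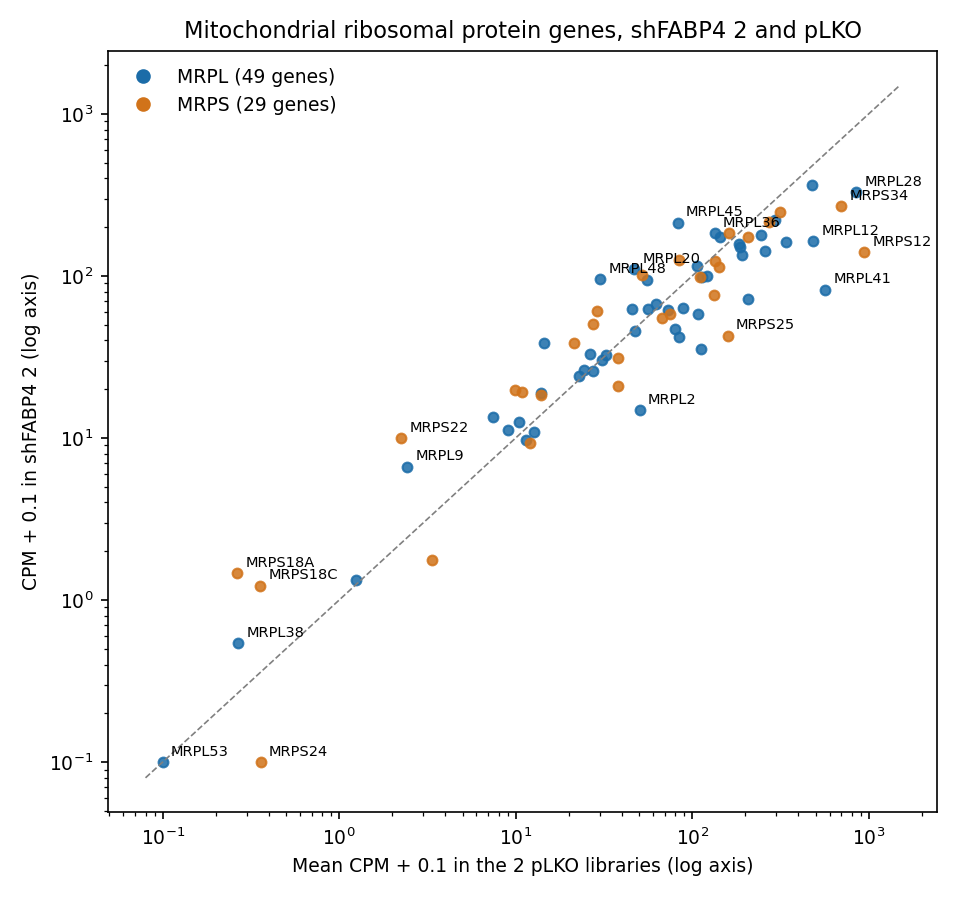
CPM + 0.1 of each of the 78 genes in shFABP4 2 (vertical axis) against the mean CPM + 0.1 of the 2 pLKO libraries (horizontal axis), both on log axes, with MRPL genes in blue and MRPS genes in orange and a dashed line of equality. The genes with the highest pLKO levels, MRPS12, MRPL28, MRPS34, MRPL41 and MRPL12, lie below the line, and MRPL45, MRPL48, MRPS22 and MRPL9 lie above it.

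Background weighed unevenly on the members in shFABP4 1. The median member had 3.37 times the fragments expected from background. It was under 2 times for 19 members, of which 7 fell short of the expected background itself, and at least 5 times for 23. MRPL2 had 22 fragments with 35.5 expected, and MRPL38 had 39 with 61.3 expected. For such genes a value in shFABP4 1 is mostly or wholly background.

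**Figure D2:**
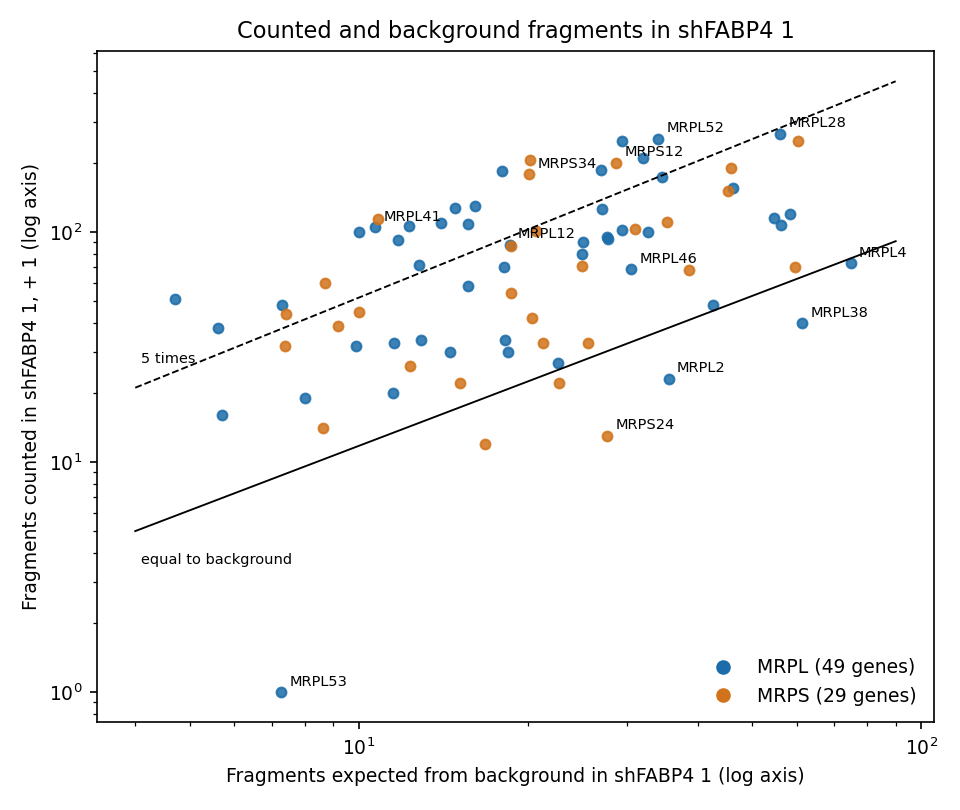
Fragments counted in shFABP4 1, plus 1 (vertical axis), against fragments expected from background in that library (horizontal axis), both on log axes, for the 49 MRPL genes (blue) and 29 MRPS genes (orange). The solid line marks counts equal to background and the dashed line 5 times background. MRPS12 and MRPL41 lie above the dashed line, and MRPL2, MRPS24 and MRPL38 lie below the solid line.

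When all 4 libraries were compared over 14735 genes (edgeR quasi-likelihood test, Benjamini-Hochberg adjustment), 0 of the 75 members tested passed an adjusted p of 0.05. MRPL53, MRPL38 and MRPS24 had too few fragments to be tested. Among all genes 0% passed. At an unadjusted p under 0.05 there were 9 of 75 members, against 12.3% of all genes. Of these 6 were lower in shFABP4 (4.28% of all genes) and 3 higher (8.06% of all genes). MRPS18A and MRPS18C, among the higher ones, passed the count filter only through their shFABP4 counts. DESeq2 called 3 members lower, MRPL41, MRPS12 and MRPS25, and limma-voom called 0. The test had little reach, since in simulated data it found 0 of 200 genes changed 4-fold.

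Without passing the test, 60 of the 75 members had a lower and 15 a higher fitted level in shFABP4. The median log2 fold change was -0.94 for the 47 MRPL genes and -1.04 for the 28 MRPS genes, beside 0.34 for all genes. This distance moved with the libraries, as the MRPL median was -0.34 without shFABP4 1 and -3.41 without shFABP4 2. The smallest p among lower members came from MRPL17, MRPL2 and MRPS25. MRPL17, a large subunit protein with a bacterial counterpart, had 36.2 and 35.5 CPM in shFABP4 libraries, against 112 and 114 CPM in pLKO libraries (log2 fold change -2.24, SE 0.57, adjusted p 0.391 in edgeR). MRPL2, the counterpart of a bacterial protein beside the peptidyl transferase centre, had 8.66 and 14.8 CPM in shFABP4 libraries, against 51.0 and 49.9 CPM in pLKO libraries (log2 fold change -2.57, SE 0.70, adjusted p 0.391 in edgeR). MRPS25, found in mitochondria alone, had 26.4 and 42.7 CPM in shFABP4 libraries, against 165 and 153 CPM in pLKO libraries (log2 fold change -2.70, SE 0.76, same adjusted p). MRPL41, MRPS12, MRPL51, MRPL54 and MRPL58 followed, with log2 fold changes between -3.66 and -1.49. In these CPM both shFABP4 libraries lay below both pLKO libraries for MRPL17, MRPL2 and MRPS25. The low count of MRPL2 in shFABP4 1 was itself under background. With CPM scaled over the 1142 genes, the order held for MRPL2 and MRPS25 but not for MRPL17. On that scale MRPL17 had 207.8 and 68.03 CPM in shFABP4 libraries, against 169.5 and 172.8 CPM in pLKO libraries. Its value in shFABP4 1 still held background. With the expected background taken off and the scaling unchanged, it was 145.3 CPM, below both pLKO libraries.

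Among higher members with a mean of at least 20 fragments, MRPS22, a mitochondria-specific protein of the small subunit, had the smallest p. MRPS18A and MRPS18C, with fewer fragments, had smaller p and are given with the S18 genes. It had 12.6 and 9.84 CPM in shFABP4 libraries, against 2.34 and 1.95 CPM in pLKO libraries (log2 fold change 1.75, SE 0.62, adjusted p 0.391 in edgeR). Its 32 fragments in shFABP4 1 faced 25.6 expected from background. MRPL9, MRPL46, MRPL48, MRPL1, MRPL32, MRPS30 and MRPL20 followed, with log2 fold changes between 0.22 and 2.57. Without shFABP4 2 the fold change turned negative for MRPL1, MRPL20, MRPL32, MRPL48 and MRPS30, without shFABP4 1 for MRPL46, and without pLKO 1 for MRPL1.

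To compare the groups where RNA outweighed background, the test was repeated over 1142 genes whose fragments in shFABP4 1, predicted from their pLKO shares alone, were at least 5 times the expected background. Libraries were scaled over these genes, and levels are given as CPM on that scale (set-scaled CPM). Of the members, 31 entered, 21 MRPL and 10 MRPS. In edgeR with Benjamini-Hochberg adjustment over the 1142 genes, 5 of 31 members fell (MRPL41, MRPS12, MRPL12, MRPS34 and MRPL28) and 0 rose. Over all 1142 genes 20.1% passed, 10.7% lower and 9.37% higher, so the members' 16.1% was near the background. Entry rested on the pLKO level set against the background expected from exon length and GC content. Members with low pLKO levels, such as MRPL48, MRPL20, MRPL32 and MRPS22, did not enter. Neither did MRPS25, MRPS23 and MRPL17, with 159, 133 and 113 CPM in pLKO, because of the background expected for them. In shFABP4 2 against pLKO these last members had log2 fold changes of -2.14, -1.04 and -1.91. The split by direction is therefore no result about the 78 genes.

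MRPL41, a mitochondria-specific protein of the large subunit, had 235 and 158 set-scaled CPM in shFABP4 libraries, against 859 and 857 in pLKO libraries (log2 fold change -2.16, SE 0.25, adjusted p 0.0281 in edgeR). MRPL12, which forms the flexible stalk that recruits translation factors, had 197 and 313 set-scaled CPM in shFABP4 libraries, against 758 and 715 in pLKO libraries (log2 fold change -1.50, SE 0.27, adjusted p 0.0434 in edgeR). MRPL28, a large subunit protein with a bacterial counterpart, had 601 and 632 set-scaled CPM in shFABP4 libraries, against 1310 and 1267 in pLKO libraries (log2 fold change -1.06, SE 0.13, adjusted p 0.0281 in edgeR). In each of these 3 large subunit genes both shFABP4 libraries lay below both pLKO libraries. For MRPL12, 69.5% of exon bases also belong to another gene name, so fragments lying in both may have gone uncounted.

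In the small subunit, MRPS12 had 450 and 269 set-scaled CPM in shFABP4 libraries, against 1435 and 1433 in pLKO libraries (log2 fold change -2.02, SE 0.31, adjusted p 0.0359 in edgeR). MRPS34, a mitochondria-specific protein, had 400 and 517 set-scaled CPM in shFABP4 libraries, against 1055 and 1059 in pLKO libraries (log2 fold change -1.20, SE 0.18, adjusted p 0.0351 in edgeR). Neither gene's groups overlapped, and 31.2% of the exon bases of MRPS34 lie in its neighbour EME2. In shFABP4 1 the 5 genes had 87 to 266 fragments each, of which 10.7 to 56.0 were expected from background. These 5 genes were the 5 members with the highest pLKO levels. They held 12.2% and 15.2% of the members' fragments in shFABP4 libraries, against 35.8% and 35.5% in pLKO libraries.

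**Figure D3:**
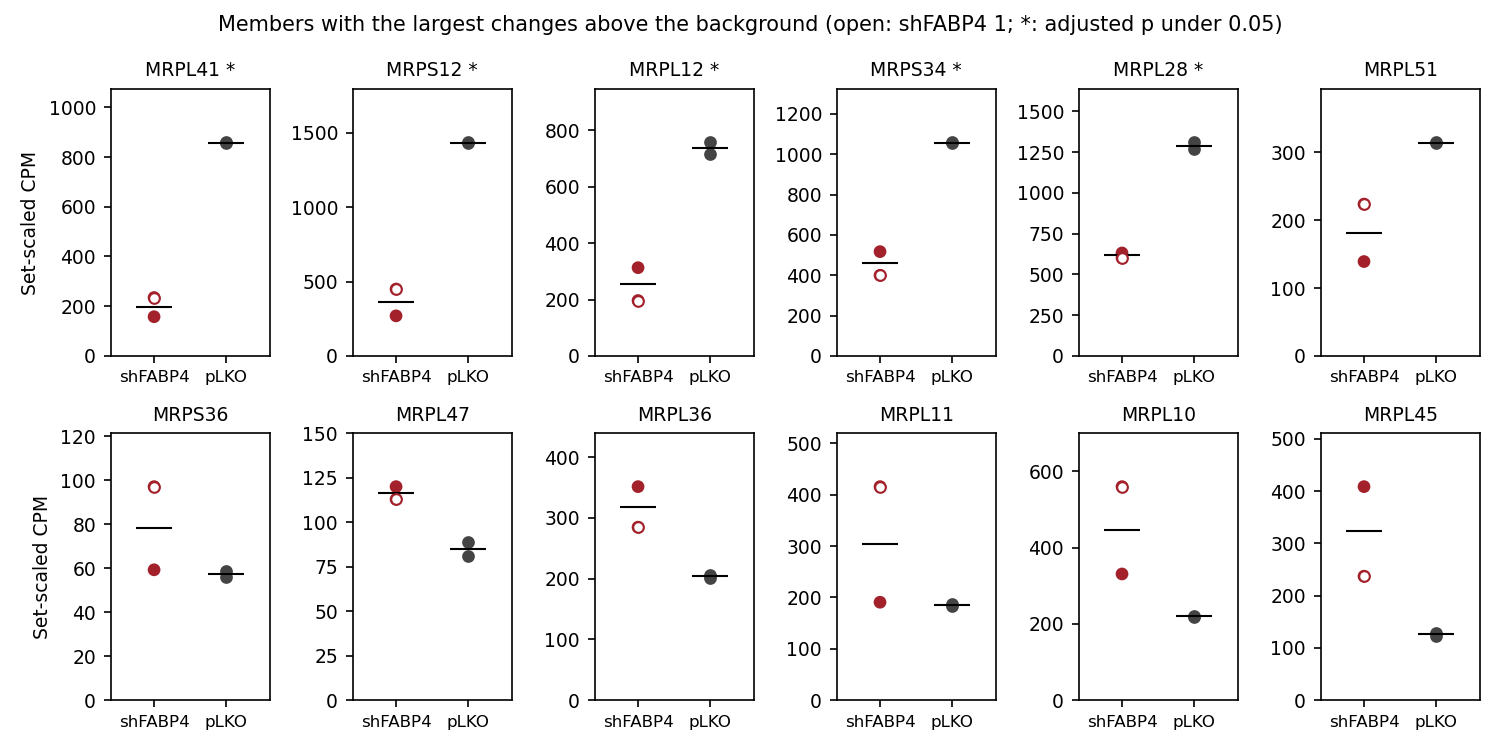
Set-scaled CPM of the 6 largest decreases (upper row) and 6 largest increases (lower row) among the 31 members above background, for shFABP4 (red, library 1 open) and pLKO (grey), with bars at the mean of 2 libraries. In the 5 starred genes, which passed the test, both shFABP4 libraries lie well below both pLKO libraries, while the shFABP4 libraries of MRPL11, MRPL10 and MRPL45 lie far apart.

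The 5 calls held with upper-quartile scaling, where MRPL36 and MRPL45 passed as higher. With library totals alone MRPS12 did not pass, and MRPL45 did as higher. Without pLKO 1 the 2 calls were MRPL41 and MRPS12, and without pLKO 2 there were 0. With genes at 2 times background admitted, 0 members passed, but the log2 fold changes of MRPL41 and MRPS12 were -2.4 and -2.28 (adjusted p 0.0532 for both in edgeR). With the background set by length alone 0 passed as well, at -2.15 for MRPL41 (adjusted p 0.0517 in edgeR) and -2.02 for MRPS12 (0.0532). The called members also had a high GC content, 59.5% to 72.0%, against a median of 51.6% (39.5% to 63.4%) in the other 26 members. When GC content and length were corrected for, 3 members passed, MRPL41 (log2 fold change -1.63, adjusted p 0.0355 in edgeR) and MRPL28 (-0.76, 0.0466) lower and MRPL36 (0.90, 0.0486) higher. MRPS12 then stood at -1.68 (0.0537), MRPL12 at -1.0 (0.112) and MRPS34 at -0.72 (0.101).

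The largest increases among the 31 members were in the large subunit and did not pass. MRPL45, which lies by the tunnel exit through which new proteins leave, had 237 and 409 set-scaled CPM in shFABP4 libraries, against 129 and 123 in pLKO libraries (log2 fold change 1.38, SE 0.31, adjusted p 0.0595 in edgeR). It passed once the expected background was subtracted (log2 fold change 1.35, adjusted p 0.0375 in edgeR), with upper-quartile scaling (0.047) and with library totals (0.0469). DESeq2 (adjusted p 0.00136) and limma-voom (0.0191) called it too. Without pLKO 1 or pLKO 2 it did not pass (adjusted p 0.135 and 0.332 in edgeR). Nor did it pass after correction for GC content and length (log2 fold change 1.06, adjusted p 0.102 in edgeR). Over all alternatives its log2 fold change ranged from 0.27 to 1.7. Its pseudogene MRPL45P2 had 19 and 224 fragments in shFABP4 libraries, against 28 and 88 in pLKO libraries. In set-scaled CPM both shFABP4 libraries of MRPL45 lay above both pLKO libraries. In plain CPM they did not, at 41.3 and 213 in shFABP4 libraries, against 84.8 and 80.8 in pLKO libraries.

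MRPL10 and MRPL11, which form the base of the stalk that carries MRPL12, had log2 fold changes of 1.0 (SE 0.31) and 0.67 (SE 0.43). MRPL10 had 560 and 331 set-scaled CPM in shFABP4 libraries, against 221 and 219 in pLKO libraries, and MRPL11 had 416 and 191 against 187 and 184. In both genes shFABP4 1 lay well above shFABP4 2, and DESeq2 called MRPL10 higher (adjusted p 0.0196). MRPL36, a small zinc-binding protein, had 285 and 351 set-scaled CPM in shFABP4 libraries, against 201 and 206 in pLKO libraries (log2 fold change 0.65, SE 0.16, adjusted p 0.0665 in edgeR). MRPL47, near the tunnel exit, had a log2 fold change of 0.46 (SE 0.18), and MRPS36 had 0.41 (SE 0.33). These last 2 values turned slightly negative after correction for GC content and length. MRPL51, next after the 5 calls, did not pass either (-0.83 on the log2 scale, SE 0.28, adjusted p 0.118 in edgeR).

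The remaining 19 of the 31 members had log2 fold changes between -0.57 (MRPL55) and 0.27 (MRPS21). MRPL58, a peptidyl-tRNA hydrolase built into the large subunit, stood at 0.23 (SE 0.47), and MRPS18B at 0.18 (SE 0.33). Counting sides alone, 10 of 31 members had both shFABP4 libraries below both pLKO libraries and 8 had both above, against 39.0% and 36.0% of all 1142 genes.

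**Figure D4:**
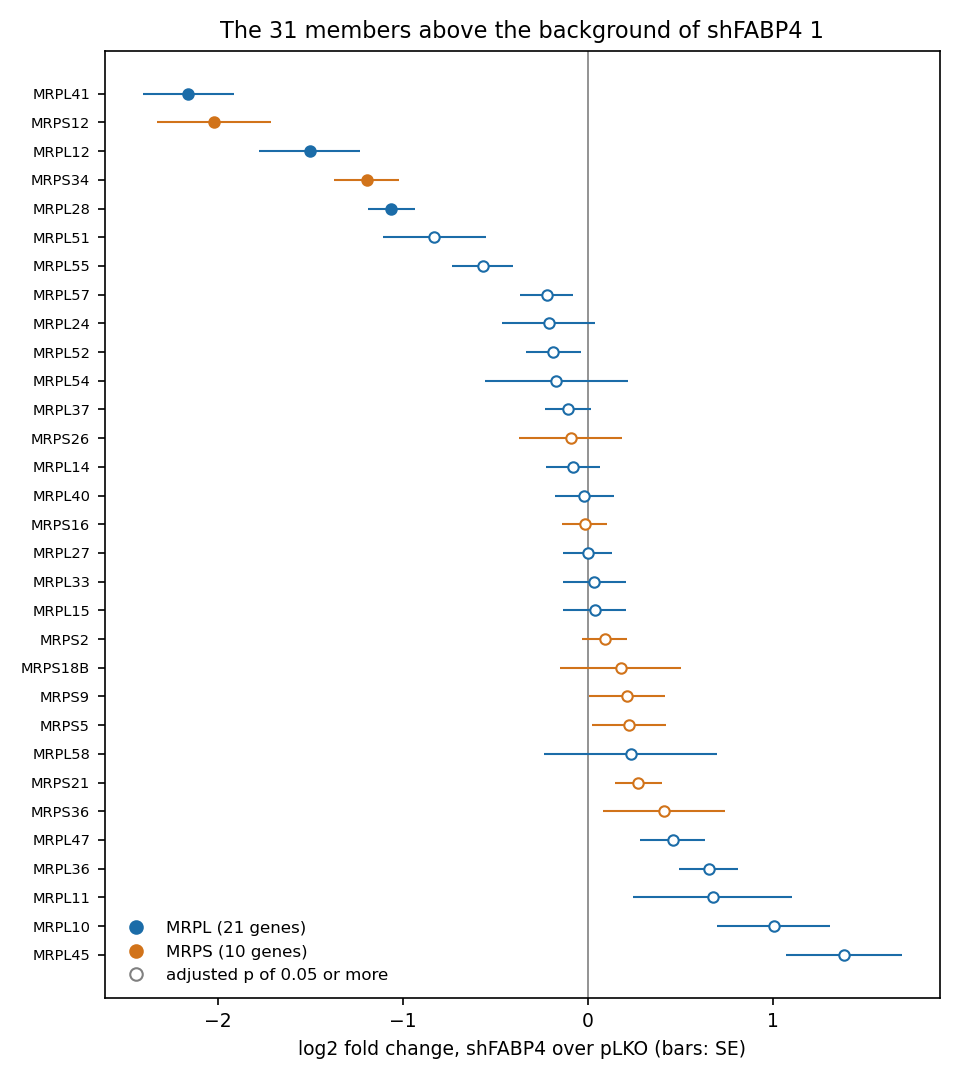
Log2 fold change of shFABP4 over pLKO, with SE, for the 21 MRPL genes (blue) and 10 MRPS genes (orange) above background; filled points passed an adjusted p of 0.05 in edgeR. MRPL41 and MRPS12 lie near -2, 19 members lie between -0.57 and 0.27, and MRPL45 lies highest at 1.38.

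The promoters of MRPL41 and MRPS12, from the lower end of this order, and of MRPL45 and MRPL36, from the upper part, are printed here. They were picked by hand as examples. They are RefSeq sequences of GRCh38.p14, from 250 bases before to 50 bases after the annotated start, and capitals mark motif matches found on either strand. The MRPL41 window is chr9:137551629-137551928 (plus strand), and that of MRPS12 is chr19:38930694-38930993 (plus strand). The MRPL45 window is chr17:38296918-38297217 (plus strand), and that of MRPL36 is chr5:1799788-1800087 (minus strand).
MRPL41: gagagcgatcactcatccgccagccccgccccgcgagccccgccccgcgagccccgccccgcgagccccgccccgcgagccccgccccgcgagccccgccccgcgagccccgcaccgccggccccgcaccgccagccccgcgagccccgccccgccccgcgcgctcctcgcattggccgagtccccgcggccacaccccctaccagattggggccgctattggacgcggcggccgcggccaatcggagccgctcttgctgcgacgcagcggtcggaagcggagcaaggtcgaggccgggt
MRPS12: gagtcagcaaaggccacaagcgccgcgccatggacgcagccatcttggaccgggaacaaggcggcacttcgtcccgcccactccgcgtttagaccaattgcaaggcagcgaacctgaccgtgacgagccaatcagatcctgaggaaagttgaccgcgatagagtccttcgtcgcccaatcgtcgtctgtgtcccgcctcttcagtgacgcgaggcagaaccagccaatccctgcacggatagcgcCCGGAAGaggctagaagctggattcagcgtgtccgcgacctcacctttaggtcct
MRPL45: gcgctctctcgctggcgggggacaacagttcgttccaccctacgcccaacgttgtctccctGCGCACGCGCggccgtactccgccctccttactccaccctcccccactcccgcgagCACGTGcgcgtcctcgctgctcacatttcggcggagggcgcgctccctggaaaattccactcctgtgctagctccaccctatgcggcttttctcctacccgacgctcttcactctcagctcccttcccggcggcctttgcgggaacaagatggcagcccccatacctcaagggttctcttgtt
MRPL36: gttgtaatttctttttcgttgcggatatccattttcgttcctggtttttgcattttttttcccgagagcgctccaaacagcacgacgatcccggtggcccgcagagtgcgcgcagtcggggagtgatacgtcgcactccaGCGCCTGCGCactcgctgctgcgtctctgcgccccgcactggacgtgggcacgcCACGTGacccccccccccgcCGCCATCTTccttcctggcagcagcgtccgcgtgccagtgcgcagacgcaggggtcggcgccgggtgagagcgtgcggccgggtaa
The capitals in MRPS12 mark an ETS motif. Those in MRPL45 mark, in order, an NRF1 motif read on the other strand and an E-box. Those in MRPL36 mark an NRF1 motif, an E-box and a YY1 motif, the last read on the other strand. No match in these windows overlapped another. The MRPL41 window held none of the 5 motifs searched, and 80.7% of its bases are G or C, against 60.3% in MRPS12, 64% in MRPL45 and 64.3% in MRPL36. The window of MRPL11, whose increase was larger than that of MRPL36, held none of the motifs either. The printed windows therefore do not stand for lower or higher members in general.

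Across all windows, 69 of the 78 members could be matched to a promoter. The ETS motif CCGGAAG, the core read by GABPA, stood in 29 of 69 (42.0%), against 10.7% of 27305 promoters of the same length. The YY1 motif AAGATGGCG stood in 13 (18.8%, against 1.85%) and the palindromic NRF1 motif in 8 (11.6%, against 6.28%). The E-box CACGTG stood in 6 (8.70%, against 7.43%), and the ZNF143 motif in 0 (against 0.256%). A match is a stretch of letters and not a bound site. In the comparison of shFABP4 2 with pLKO that follows, the median log2 fold change was -0.42 for the 27 members tested with an ETS match and -0.34 for the 39 without. It was 0.08 for the 11 with a YY1 match and -0.48 for the 55 without, which was not tested further.

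A last comparison left out shFABP4 1 and set shFABP4 2 against the pLKO libraries over 15301 genes. It describes 3 libraries, since a single shFABP4 library was assumed to vary like the pLKO pair. MRPS18A and MRPS18C, counted below as higher, entered this comparison only through shFABP4 2. In edgeR with Benjamini-Hochberg adjustment, 62 of 75 members passed, 43 lower and 19 higher, against 66.9% of all genes, 32.7% lower and 34.2% higher. Of the MRPL genes 27 of 47 fell and 9 rose, and of the MRPS genes 16 of 28 fell and 10 rose. The median log2 fold change was -0.34 for MRPL and -0.46 for MRPS genes, beside 0.04 for all genes. With library totals in place of TMM scaling the median of all genes moved to 0.28. That of the members moved from -0.42 to -0.17, with 8 members changing direction. With DESeq2 the members' median was -0.45, beside 0.005 for all genes.

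By the classes of the current protein nomenclature, 27 of 44 members with a bacterial counterpart fell and 11 rose, and 16 of 31 mitochondria-specific members fell and 8 rose. MRPL41 had 82.3 CPM in shFABP4 2, against 566 and 564 CPM in pLKO libraries (log2 fold change -3.02, SE 0.04). MRPS12 had 140 CPM in shFABP4 2, against 945 and 942 CPM in pLKO libraries (log2 fold change -2.99, SE 0.04). MRPS25 (-2.14), MRPL2 (-2.01), MRPL17 (-1.91) and MRPL12 (-1.81) came next in log2 fold change. The CPM of MRPL41 and MRPS12 in pLKO were 6.86 and 6.72 times those in shFABP4 2, and both genes stood apart from the next member.

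Higher members in shFABP4 2 were mostly of modest pLKO level, with a median of 27.4 CPM in pLKO against 122 CPM for lower members. MRPL48, a mitochondria-specific large subunit protein, had 95.7 CPM in shFABP4 2, against 30.5 and 29.8 CPM in pLKO libraries (log2 fold change 1.43, SE 0.07). MRPL45 had 213 CPM in shFABP4 2, against 84.8 and 80.8 CPM in pLKO libraries (log2 fold change 1.12, SE 0.05). MRPL32, whose precursor is cut to size by the m-AAA protease of the inner membrane, had 38.6 CPM in shFABP4 2, against 14.7 and 14.1 CPM in pLKO libraries (log2 fold change 1.18, SE 0.13). MRPL20 had 110 CPM in shFABP4 2, against 45.1 and 48.5 CPM in pLKO libraries (log2 fold change 0.99, SE 0.07). All 4 rose and lay above both pLKO libraries. MRPL44, which resembles an RNA-cutting enzyme, did not pass, at a log2 fold change of 0.01 (SE 0.17).

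The 3 members that carry the S18 name differed in level. MRPS18C is the counterpart of the bacterial protein in the nomenclature used here, and MRPS18A and MRPS18B are counted as mitochondria-specific. MRPS18B had 33.9 and 184 CPM in shFABP4 libraries, against 167 and 158 CPM in pLKO libraries, and it did not pass without shFABP4 1 (log2 fold change -0.07, SE 0.05). MRPS18A had 21 and 28 fragments in shFABP4 libraries, against 1 and 3 in pLKO libraries, and MRPS18C had 11 and 23 against 2 and 4. In the comparison of 3 libraries these were log2 fold changes of 2.67 (SE 0.85) and 1.83 (SE 0.83, adjusted p 0.0468 in edgeR). Both rest on few fragments, and both genes share much of their exon bases with a neighbour, 50.9% with RSPH9 and 40.2% with ABRAXAS1. With so few pLKO fragments, both genes entered the tests only through their shFABP4 counts, so their rise cannot be read as a result. In shFABP4 1 both counts were under the background expected.

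Change went with GC content and with level across the members. Over the 75 members in the comparison of 3 libraries, Spearman's rho between log2 fold change and GC content was -0.38, beside -0.28 over all genes, and with pLKO level it was -0.65. Over the 31 members above background it was -0.61 with GC content, beside -0.39 over all 1142 genes. These describe genes within the same libraries, which are not independent, and pLKO counts enter both the fold change and the level. Median GC content was 44.8% in the members that rose and 51.4% in those that fell, beside 46.7% and 55% over all genes. After correction for GC content and length 42 fell and 19 rose, of which 39 and 16 were the same genes as before. The part of GC content in the single changes was not tested.

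**Figure D5:**
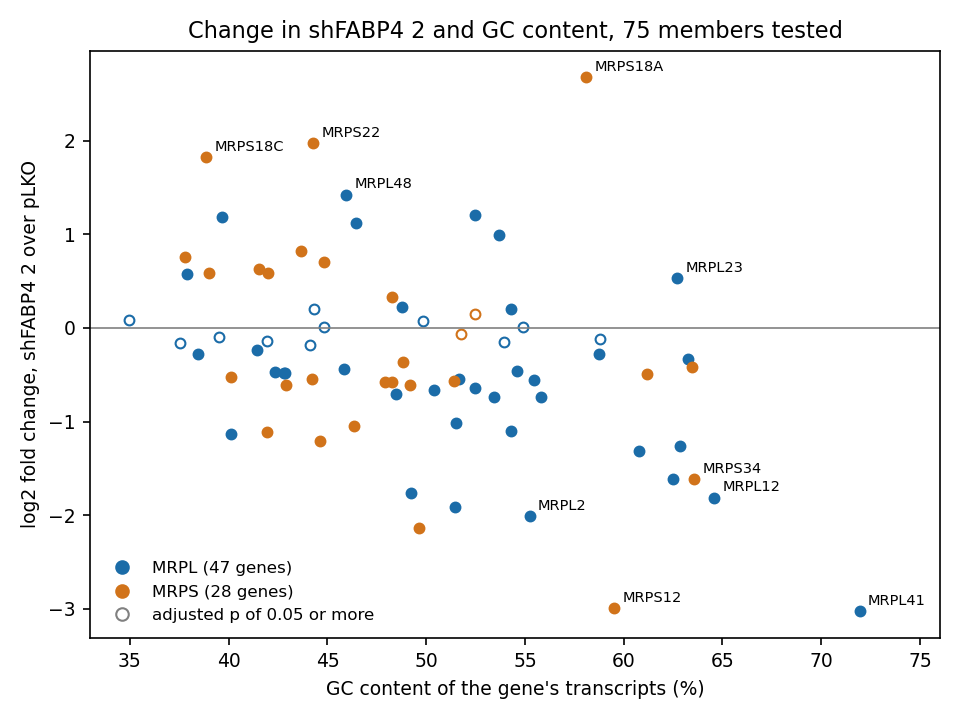
Log2 fold change of shFABP4 2 over pLKO (vertical axis) against GC content of the gene's transcripts in percent (horizontal axis) for the 47 MRPL genes (blue) and 28 MRPS genes (orange) tested in 3 libraries; open points did not pass an adjusted p of 0.05 in edgeR. MRPL41, with the highest GC content (72.0%), has the lowest value, and MRPS18A, MRPS22, MRPS18C and MRPL48 have the highest. MRPS18A and MRPS18C were tested only through their counts in shFABP4 2.

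Genes that work with the mitochondrial ribosome were counted in the same way. With all 4 libraries 0 of the tested genes in any of the 5 lists passed. In the comparison of shFABP4 2 with pLKO their counts stand beside 66.9% of all genes called, 32.7% lower and 34.2% higher. Among 5 ribosomal proteins with other names, 4 fell and 1 rose in shFABP4 2 (100% called). DAP3, a small subunit protein that binds GTP, had 56.7 and 79.1 CPM in shFABP4 libraries, against 188 and 186 CPM in pLKO libraries, with a log2 fold change of -1.99 (SE 0.73) over 4 libraries. AURKAIP1 had 86.6 and 361 CPM in shFABP4 libraries, against 640 and 646 CPM in pLKO libraries, with a log2 fold change of -1.89 (SE 1.24). In both genes the CPM of the shFABP4 libraries lay below those of the pLKO libraries. Over the 1142 genes above background the log2 fold changes were smaller, and neither gene passed. They were -0.30 for DAP3 (SE 0.42, adjusted p 0.611 in edgeR) and -0.71 for AURKAIP1 (SE 0.21, 0.0951).

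Of 16 translation factors 14 were tested, and 6 rose and 5 fell in shFABP4 2 (78.6% called, against 66.9% of all genes). TACO1, needed to translate the mitochondrial COX1 message, had 30.7 and 61.7 CPM in shFABP4 libraries, against 182 and 169 CPM in pLKO libraries (log2 fold change -2.39, SE 0.85, adjusted p 0.391 in edgeR over 4 libraries). GFM2, which helps to recycle ribosomes, had 10.2 and 6.12 CPM in shFABP4 libraries, against 1.22 and 2.17 CPM in pLKO libraries (log2 fold change 1.56, SE 0.69), where 18.9 of its 26 fragments in shFABP4 1 were expected from background. Of 24 assembly and rRNA modification genes 23 were tested, and 11 fell and 6 rose in shFABP4 2 (73.9% called, against 66.9% of all genes). YBEY, an RNA-cutting enzyme, had 16.5 and 18.8 CPM in shFABP4 libraries, against 67.1 and 60.9 CPM in pLKO libraries (log2 fold change -2.41, SE 0.57). The assembly factor MPV17L2 had a log2 fold change of -1.88 (SE 0.54), with 42 fragments in shFABP4 1 and 38.5 expected from background. Neither passed over 4 libraries.

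Of 5 genes for transcription of mitochondrial DNA, 2 fell and 0 rose in shFABP4 2, which is 40% called, against 66.9% of all genes. These were POLRMT, the mitochondrial RNA polymerase, and TFB2M, its initiation factor, with log2 fold changes of -0.37 (SE 0.06) and -0.38 (SE 0.14). Of 8 regulators of nuclear genes for mitochondria 7 were tested, and 3 rose and 2 fell in shFABP4 2 (71.4% called, against 66.9% of all genes). NRF1, GABPA and YY1, whose motifs were searched, were among them. GABPA rose (log2 fold change 0.72, SE 0.23) and so did YY1 (0.52, SE 0.07), while NRF1 fell (-0.31, SE 0.13). Over 4 libraries PPARGC1B and ESRRA had the smallest p, at log2 fold changes of 3.18 (SE 1.55) and 1.6 (SE 0.81), and neither passed. Without shFABP4 1 these were -0.28 (SE 0.42) for PPARGC1B and 0.27 (SE 0.19) for ESRRA, so shFABP4 1 carried both values. PPARGC1B had 160 and 36 fragments in shFABP4 libraries, against 11 and 31 in pLKO libraries, and 211 were expected in shFABP4 1 from background alone.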

How the data were processed

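RNA of 2 shFABP4 and 2 pLKO libraries of Daoy cells was sequenced. Per the labels' protocols, mRNA was enriched on capture beads and fragmented with Tn5. Per the file headers, the authors made the deposited counts with featureCounts 2.0.0 over GENCODE 38 exons by gene name, without chimeric fragments and with no strand option. The submitters' processing notes name HISAT, StringTie, FastQC and GRCh38. A row of the table broken over 7 lines was left out.

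Counts were tested in R 4.3.3 with edgeR 4.0.16 (two-sided quasi-likelihood F test with robust dispersions, TMM scaling, genes kept by filterByExpr at a minimum count of 10 and 15 in total, Benjamini-Hochberg over all genes tested, threshold 0.05). The filter asked for that minimum, scaled to library size, in as many libraries as the smaller group holds. A gene could therefore enter through the shFABP4 libraries alone. SE is the log2 fold change divided by the square root of F. An exact permutation test of 2 against 2 libraries cannot go below p = 0.333. Background in shFABP4 1 was the rate per kb, by class of GC content, over coding genes with no fragment elsewhere (GC content and gene types from GENCODE 29). The members' GC content was available for all 78. Exon sharing came from the exon coordinates in the deposited table, and promoters came from RefSeq. Limits for a count of 0 use 3 counts and cover counting error only.

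The members, the gene lists, the 1142-gene set and the rules were chosen with earlier results of these data known. Genes were named where their p was among the 8 smallest in a direction with a mean of at least 20 counts, where their change was among the 6 largest in a direction in the set, or by role. In the other lists the 2 smallest p were named. RSPH9, ABRAXAS1, EME2, MRPL45P2, GABPA, YY1, NRF1, MRPL55, MRPS21 and the members under 5 CPM were named after their values were seen.

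The tests were tried on simulated data with 200 changed genes. Over the 1142 genes with 4 libraries, the test found 79 of 2-fold changes (3 false calls) and 199 of 4-fold changes (13 false calls). Over 14735 genes it found 0 of 4-fold and 26 of 16-fold changes. With 3 libraries over 15301 genes it found 104 of 1.5-fold changes (10 false calls). Alternatives were other scalings, filters, DESeq2 1.42.0, limma-voom 3.58.1, each library left out, the replicate number as a block, other background multiples, background subtraction, and spline terms (4 degrees of freedom) for GC content and exon length. Those for the comparison of 3 libraries were added after seeing the data.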

Additional observations from a re-analysis of the deposited data

How the results depend on the processing

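Over all 4 libraries the count of genes past the threshold was 0, and it was 69 with no filter and 695 with DESeq2 (3 of them members). Leaving out single libraries gave 0 to 23895 genes and 0 to 73 members. The median log2 fold change then ranged from -3.41 to -0.34 for MRPL and from -3.34 to -0.46 for MRPS. Same-numbered libraries shared little deviation from their group means (correlation 0.0106 over the table and 0.0887 over the 1142 genes). The background of shFABP4 1 enters these deviations, so they cannot say whether the libraries were paired. With the replicate number as a block, 28 genes passed over the table, and 361 genes with 8 members passed over the 1142 genes. MRPL20 turned to -0.51 with limma-voom and to -0.13 with the block, and MRPL32 to -0.01 with the block. Over single libraries left out, log2 fold changes ranged from -1.3 to 0.57 for MRPL1 (-0.21 without pLKO 1), from -0.18 to 2.25 for MRPL46, from -1.95 to 1.43 for MRPL48, from -2.43 to 1.18 for MRPL32, from -1.88 to 0.75 for MRPS30 and from -2.49 to 0.99 for MRPL20.

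Over the 1142 genes 229 passed, 5 of them members. DESeq2 gave 388 genes, limma-voom 460 with 9 members, and correction for GC content and length 142 with 3 members. At 2 times background, with background by length only, and with scaling by all genes of the table, 0 genes and 0 members passed. Scaling by all genes moved the median of the 1142 genes to -1.33, and MRPL47 to -0.84, MRPL36 to -0.59, MRPS36 to -1.13, MRPL11 to -1.03 and MRPL10 to -0.58. Correction for GC content and length put MRPL47 at -0.03 and MRPS36 at -0.09, and the block with it put them at -0.03 and -0.12. Leaving out single libraries gave 0 to 1019 genes and 0 to 19 members. The adjusted p of MRPL41 ranged from 4.34e-61 to 0.711 over the alternatives. With shFABP4 2 alone against pLKO, DESeq2 called 6142 genes in place of 10242. The causes were not tested. In shFABP4 1, 47 of the 78 members were not expected from their pLKO levels to reach 5 times its background, and 19 had under 2 times the expected background.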
